A study of Mus musculus with 2 samples.

Results

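The genes described here were assigned 5-hydroxymethylcytosine (5-hmC) regions of mouse epidermis by the authors. They are grouped here under Hippo signalling, the STRIPAK phosphatase complex and epithelial polarity, though Prom2 encodes a membrane glycoprotein of epithelial protrusions. The 6 genes are Ptpn14, Strn4, Vangl2, Sipa1l3, Camsap3 and Prom2. A region was included when the authors' gene list for it named 1 of these genes exactly, which gave 10 of the 364 deposited regions. The genes were picked with these values in view, and the table itself holds only regions that differed about 2-fold between the libraries. Directions and sizes below are therefore descriptions, without a test.

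Treated epidermis came from C57BL/6J mice, 6 weeks old, that received 3.125 mg of imiquimod daily for 6 days in a 5% cream on shaved back and right ear. The control epidermis came from mice of the same strain and age given Vaseline as the vehicle. The value columns of both carry the letters WT, and the labels name no altered allele. Imiquimod is a Toll-like receptor agonist that gives a psoriasis-like dermatitis in mouse skin. Epidermis was separated from dermis with dispase, and how many mice stand behind a library is not stated. DNA carrying 5-hmC was pulled down with an antibody and sequenced (hMeDIP-seq), with 1 library per condition and so no replicate spread.

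5-hmC is made from 5-methylcytosine by TET enzymes, mostly at CpG sites, and is often found in the bodies of transcribed genes. Hippo signalling restrains the transcriptional co-activators YAP and TAZ, which drive growth of epidermal progenitor cells. The STRIPAK complex joins a PP2A phosphatase to Hippo kinases and lowers their activity. Polarity proteins set the apical, basal and planar axes of epithelial cells, and planar polarity orients hair follicles in the skin.

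All 10 regions had a lower 5-hmC pileup in imiquimod than in Vaseline epidermis, as did 74.5% of all 364 listed regions. All 10 were at least 2-fold lower, as were 74.2% of the listed regions. This contrast chose the members, so nothing is read from these counts. The median difference was 2.21-fold over the 10 regions and 2.18-fold over the other 261 lower regions. Strn4 stood apart in size at 4.05-fold, followed by Prom2 at 2.87-fold, while the remaining 8 regions lay between 2.08-fold and 2.54-fold. At least 3-fold lower was 1 of the 10 regions, against 1.92% of all listed regions.

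The tissue label could not be checked by expression, since only DNA was measured. Of 9 keratinocyte marker genes 1 had a listed region, Krt1, where the average was 18.3 in imiquimod and 8.13 in Vaseline epidermis, 2.25-fold higher. Of 34 marker genes of T cells, myeloid cells, melanocytes, nerve, fibroblasts, vessels, muscle and fat 0 had one. Whether such cells had a part in the results was not tested. In a bulk library, fewer cells of a type and less 5-hmC per cell cannot be told apart. Sequencing depth is unknown. Estimated tags over all listed regions summed to 12942 in the imiquimod library and 19445 in the Vaseline library, and the scaling between them is not stated.

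The regions fell at 3 kinds of place. Introns of the gene held 6 of them, all in Ptpn14 and Sipa1l3. Coding exons of the gene were overlapped by 3, in Strn4, Vangl2 and Prom2, and the region assigned to Camsap3 lay beyond the end of that gene, over coding exons of Xab2. Coding bases of an assigned gene were thus present in 4 of 10 regions (40%), against 112 of the other 261 lower regions (42.9%).

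**Figure D1:**
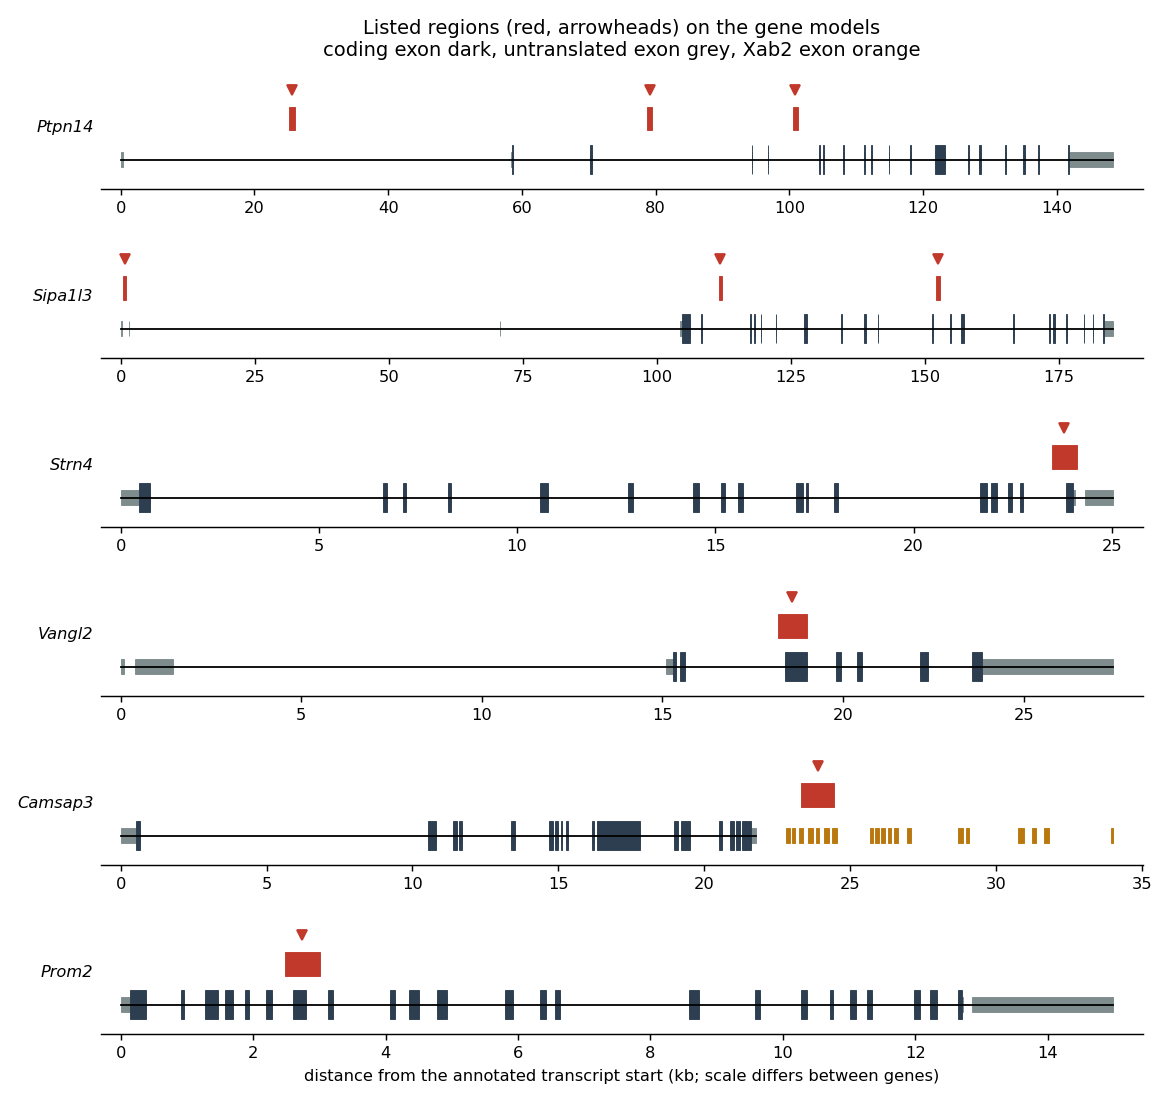
Position of the 10 regions (red blocks, arrowheads) on 1 annotated transcript of each gene, with distance from the transcript start in kb on the x axis and a separate scale for each gene. Dark blocks are coding exons, grey blocks untranslated exons and orange blocks exons of Xab2. The regions of Ptpn14 and Sipa1l3 sit between exons, those of Strn4, Vangl2 and Prom2 cover a coding exon, and that of Camsap3 lies 1547 bp past the gene.

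The coding sequence under these 4 regions is shown because CpG sites in it are where 5-hmC can lie. Each line runs 5′ to 3′ on the strand of the gene, from the GENCODE M21 transcripts on GRCm38 (mm10), with CpG sites in capitals. For Strn4 these are the last coding bases before the stop codon (chr7:16839741-16839907, plus strand, exon 17 of 18). For Vangl2 they are the central 300 bases of exon 5 of 9 (chr1:172009595-172009894, minus strand). For Prom2 they are the whole of exon 7 of 24 (chr2:127538662-127538867, minus strand). For the region assigned to Camsap3 they are exon 15 of 19 of Xab2, the exon with the densest CpG there (chr8:3611114-3611236, minus strand).
Strn4: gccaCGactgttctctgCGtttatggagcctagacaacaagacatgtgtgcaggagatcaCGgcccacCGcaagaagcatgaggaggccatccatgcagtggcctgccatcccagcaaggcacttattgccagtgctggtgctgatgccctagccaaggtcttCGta
Vangl2: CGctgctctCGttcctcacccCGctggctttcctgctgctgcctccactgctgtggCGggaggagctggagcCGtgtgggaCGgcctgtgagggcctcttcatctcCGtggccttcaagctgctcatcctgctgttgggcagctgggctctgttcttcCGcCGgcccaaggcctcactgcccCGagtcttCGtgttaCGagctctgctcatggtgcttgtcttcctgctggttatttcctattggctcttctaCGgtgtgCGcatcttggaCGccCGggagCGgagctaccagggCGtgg
Prom2: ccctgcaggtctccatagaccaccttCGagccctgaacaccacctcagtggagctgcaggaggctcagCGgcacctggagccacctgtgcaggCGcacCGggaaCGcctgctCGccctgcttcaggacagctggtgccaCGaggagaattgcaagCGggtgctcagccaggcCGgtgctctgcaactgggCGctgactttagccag
Xab2: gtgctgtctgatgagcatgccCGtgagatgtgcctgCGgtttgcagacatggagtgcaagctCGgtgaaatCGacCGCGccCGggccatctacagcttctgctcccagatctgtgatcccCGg

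CpG density differed among these coding parts. The Strn4 part held 5 CpG sites in 167 bases (2.99 per 100 bases), fewer than the whole Strn4 coding sequence at 4.17 per 100. The Prom2 part held 10 in 206 bases (4.85 per 100), more than the whole coding sequence of Prom2 at 3.03. The Vangl2 part had 35 in 608 bases, or 5.76 per 100, against 5.37 in all of its coding sequence, and the Xab2 part had 26 in 619 bases, or 4.20 against 4.41. So the coding part of the region with the greatest fold difference by average pileup had the lowest CpG density of the 4. By highest pileup the greatest difference of the 4 was that of Vangl2, 3.64-fold, and its coding part had the highest density. No relation is read from these 4 parts. Coding bases made up 26.3% of the region in Strn4, 39.5% in Prom2, 74.1% in Vangl2 and 54.8% in Xab2. The CpG density of the whole regions is not known. Over 106 coding parts of at least 100 bases in other lower regions the density ran from 1.76 to 13.9 per 100 bases, with a median of 4.48, and the 4 lay inside that range.

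Ptpn14 encodes a cytoplasmic tyrosine phosphatase that binds YAP and keeps it out of the nucleus. Its 3 regions lie in introns 1, 3 and 5 of 18 and stretch over 75969 bp of a gene of 148428 bp. They are 52654 bp and 21017 bp apart, and the nearest exon is 24839, 8302 and 3255 bp away from them in that order.

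The region in intron 1 of Ptpn14 (chr1:189753503-189754329) had an average pileup of 6.24 in imiquimod and 14.73 in Vaseline epidermis, 2.36-fold lower (95% interval 1.42 to 4.01). These intervals are exact for the ratio of the tag numbers and cover counting error only. In intron 3 (chr1:189806983-189807754) the average was 8.96 in imiquimod and 19.33 in Vaseline epidermis, 2.16-fold lower (1.39 to 3.42). For intron 5 (chr1:189828771-189829472) it was 9.27 in imiquimod and 19.32 in Vaseline epidermis, 2.08-fold lower (1.31 to 3.34), the smallest difference of the 10. The intron 1 region thus had the lowest level in both libraries, and the other pair had nearly equal levels within each library.

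By the highest pileup in the region, the Ptpn14 differences were smaller. In imiquimod epidermis the highest pileup was 11 in intron 1, 16 in intron 3 and 17 in intron 5. In Vaseline epidermis it was 21, 33 and 31 in the same introns. That makes 1.91-fold, 2.06-fold and 1.82-fold lower. Summed over the 3 regions, Ptpn14 held 82.9 estimated tags in imiquimod and 181.3 in Vaseline epidermis over 2298 bp, 2.19-fold lower (1.67 to 2.86). By the authors' region numbers, 49 regions lie in this span and only these 3 are listed. The sum is therefore not the level of the gene. Regions of 1 gene share their library, so the sum narrows the counting interval and is not a replicate.

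**Figure D2:**
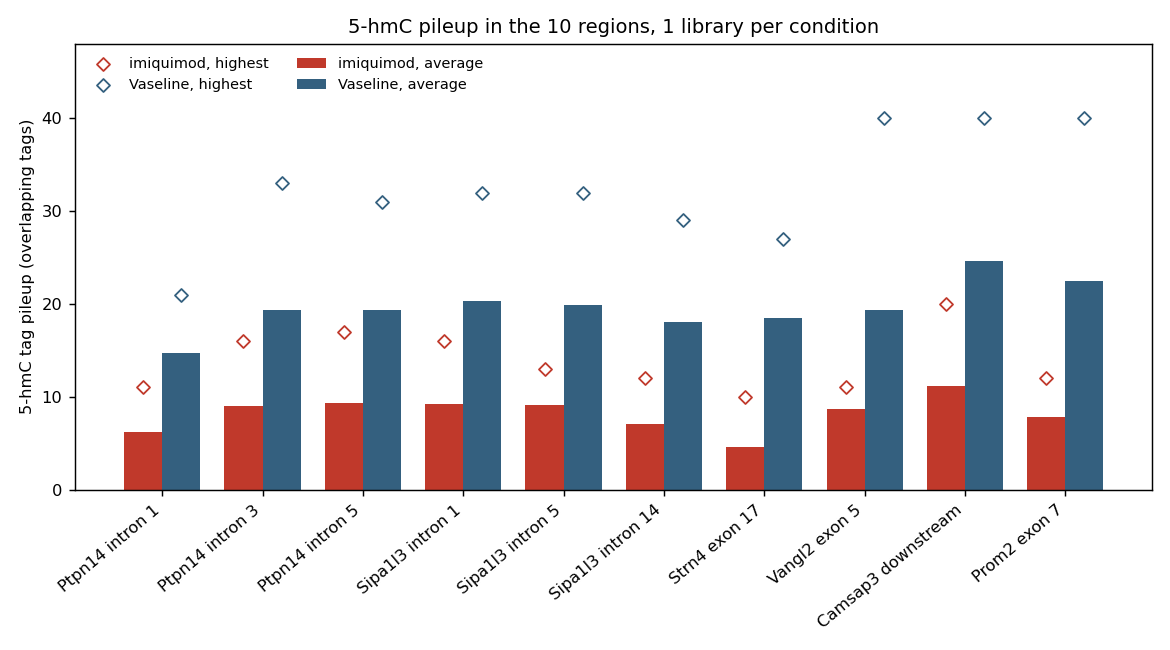
Average pileup (bars) and highest pileup (diamonds) of 5-hmC tags in each of the 10 regions, with imiquimod in red left of Vaseline in blue and 1 library per condition. Every imiquimod bar is below its Vaseline bar, with averages from 4.55 to 11.1 in imiquimod and from 14.7 to 24.6 in Vaseline epidermis.

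Strn4 encodes zinedin, a striatin. Striatins are the regulatory subunits that tie PP2A to the rest of STRIPAK. The region (chr7:16839375-16840010) takes in all of exon 17 of 18, of which 167 bp are coding and 65 bp stop codon and untranslated sequence, and its coding bases span codons 705 to 760 of 760. These are the last codons of the gene, in the C-terminal WD40-repeat part of the protein.

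The Strn4 average was 4.55 in imiquimod and 18.45 in Vaseline epidermis, or 12.9 estimated tags in imiquimod against 52.3 in Vaseline epidermis. The ratio was 4.05-fold lower in imiquimod (2.15 to 8.01). With the averages as deposited, this was the only one of the 10 intervals that excluded a 2-fold difference. The share of such intervals over all listed regions was not computed, and the scaling between the libraries is not stated. The imiquimod average of Strn4 was the lowest of all 364 listed regions, and its Vaseline average was slightly below the median of the 10 regions, 19.3. The larger tag number was at least 49.5 in every listed region. In a lower region this limit holds up the Vaseline side but not the imiquimod side. The Vaseline tags of Strn4 lie near it, so nothing is read from this contrast. The highest pileup was 10 in imiquimod and 27 in Vaseline epidermis, 2.70-fold lower, so the size of the Strn4 difference depends on which of the readouts is used. By average it ranked 1 among 271 lower regions and by highest pileup 40. The authors also assigned the region to Prkd2, a protein kinase D gene that starts 3210 bp downstream of it.

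Vangl2 encodes a membrane protein of the core planar polarity pathway, and its loss in mice disturbs the orientation of hair follicles. The region (chr1:172009435-172010255) contains the whole of a 608 bp coding exon, so that 74.1% of it is coding. This exon spans codons 65 to 267 of 521.

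In Vangl2 the average was 8.73 in imiquimod and 19.31 in Vaseline epidermis, 2.21-fold lower (1.44 to 3.48). The highest pileup was 11 in imiquimod and 40 in Vaseline epidermis, 3.64-fold lower. The Vaseline signal had a summit at 2.07 times its average, the highest such ratio of the 10 regions, and the imiquimod signal reached 1.26 times its average, the lowest of the 10. Over the other 261 lower regions such ratios ran from 1.18 to 2.63 in Vaseline and from 1.17 to 2.82 in imiquimod epidermis. Both Vangl2 values lie inside those ranges. No interval was computed for highest pileups, and whether the summit was lost was not tested. By average Vangl2 ranked 117 among 271 lower regions, and by highest pileup 5.

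Sipa1l3 encodes a Rap GTPase-activating protein of the SIPA1-like family, known for a part in epithelial cell polarity. Its 3 regions lie in introns 1, 5 and 14 of 22, over 152175 bp of the gene. The intron 1 region is centred 777 bp from the annotated transcript start and had a promoter assigned by the authors.

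In intron 1 of Sipa1l3 (chr7:29504404-29504962) the average was 9.22 in imiquimod and 20.28 in Vaseline epidermis, 2.20-fold lower (1.33 to 3.80). For intron 5 (chr7:29393365-29393947) it was 9.06 in imiquimod and 19.83 in Vaseline epidermis, 2.19-fold lower (1.31 to 3.68). For intron 14 (chr7:29352787-29353424) it was 7.10 in imiquimod and 18.00 in Vaseline epidermis, 2.54-fold lower (1.49 to 4.52). The intervals of the 3 regions overlap almost wholly, so the region near the start and those more than 100 kb into the gene cannot be ranked by size.

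In imiquimod epidermis the highest pileup of Sipa1l3 was 16 in intron 1, 13 in intron 5 and 12 in intron 14. In Vaseline epidermis it was 32, 32 and 29 in the same introns. These are 2.0-fold, 2.46-fold and 2.42-fold lower. Summed over the 3 regions, Sipa1l3 held 66.7 estimated tags in imiquimod and 153.2 in Vaseline epidermis over 1777 bp, 2.30-fold lower (1.70 to 3.09). Here too the sum is not the level of the gene, since 62 numbered regions lie in this span. Ptpn14 and Sipa1l3 are 2 of the 7 genes with 3 or more listed regions, among 399 assigned genes.

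**Figure D3:**
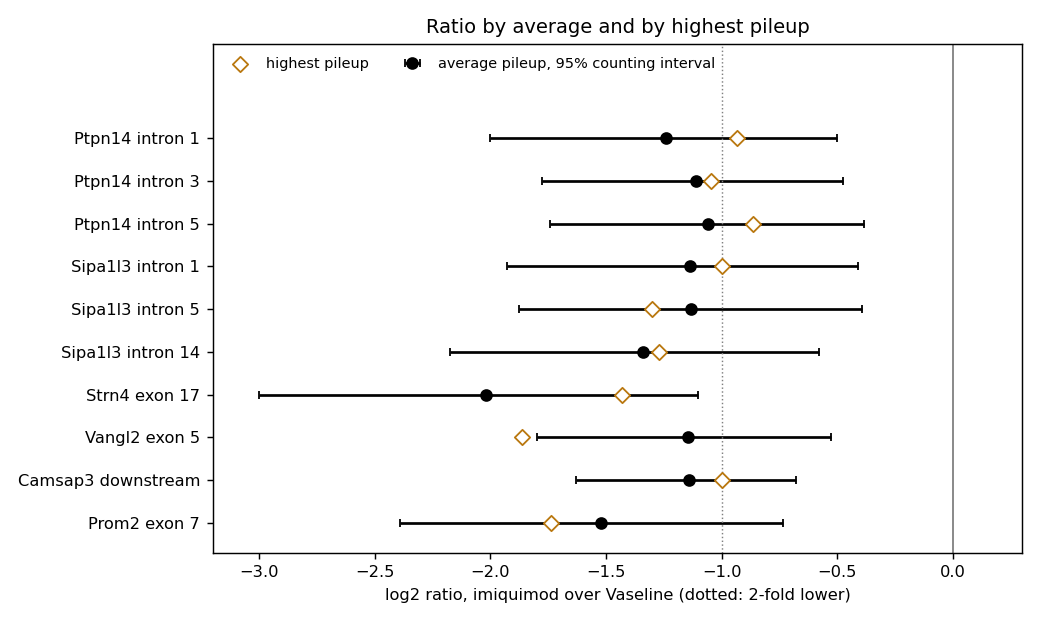
Log2 ratio of imiquimod over Vaseline in each of the 10 regions, by average pileup (black, with the 95% counting interval) and by highest pileup (open diamonds, no interval). All 10 intervals lie below 0, Strn4 is lowest by average at -2.02, and Vangl2 is lowest by highest pileup at -1.86, outside the interval of its average. That interval does not cover the error of a ratio of highest pileups.

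Camsap3 encodes a protein that binds microtubule minus ends and anchors them at the apical side of epithelial cells. The region (chr8:3610622-3611752) lies 1547 bp beyond the 3′ end of Camsap3 and overlaps none of its exons. It lies inside Xab2, the gene of an XPA-binding protein of splicing and transcription-coupled repair, which runs on the opposite strand, and touches exons 13 to 17 of 19. Coding bases of Xab2 make up 54.8% of the region. The authors also assigned it to Pet100, a gene of cytochrome c oxidase assembly, which starts 10364 bp downstream of it.

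At this region the average was 11.14 in imiquimod and 24.58 in Vaseline epidermis, 2.21-fold lower (1.60 to 3.09). With 56.2 estimated tags in imiquimod and 124.0 in Vaseline epidermis it was the longest and most deeply covered of the 10, and it has the narrowest interval. The highest pileup was 20 in imiquimod and 40 in Vaseline epidermis, 2.0-fold lower. It was also the only one of the 10 in which the authors called an enriched interval in both libraries, which was the case in 5.75% of the other 261 lower regions. The other 9 had a called interval in Vaseline alone, as had 93.5% of those regions.

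Prom2 encodes prominin-2, a membrane glycoprotein of epithelial protrusions and a relative of the stem cell marker prominin-1. The region (chr2:127538462-127538983) contains all 206 bp of coding exon 7 with intron on both sides, and those bases span codons 258 to 326 of 835. The authors placed it 2695 bp from the gene start and assigned a promoter to it.

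The Prom2 average was 7.82 in imiquimod and 22.47 in Vaseline epidermis, 2.87-fold lower (1.66 to 5.25), at 18.2 estimated tags in imiquimod and 52.3 in Vaseline epidermis. Its highest pileup was 12 in imiquimod and 40 in Vaseline epidermis, 3.33-fold lower. Prom2 was therefore among the lowest by both readouts, ranking 11 by average and 9 by highest pileup among 271 lower regions.

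By highest pileup, 8 of the 10 regions were at least 2-fold lower, against 55.2% of all listed regions and 73.9% of the other 261 lower regions. The members' share is thus near that of the lower regions. Both readouts come from the same reads, so neither is separate support for the other. The 3 regions over coding exons of their own gene, in Strn4, Vangl2 and Prom2, were 2.70-fold to 3.64-fold lower by highest pileup. The 6 intronic regions of Ptpn14 and Sipa1l3 were 1.82-fold to 2.46-fold lower, so these ranges did not overlap. The region assigned to Camsap3, which holds coding bases of Xab2, lay inside the intronic range at 2.0-fold. By average pileup the ranges overlapped, with 2.21-fold to 4.05-fold for the 3 and 2.08-fold to 2.54-fold for the 6. Among the other lower regions the medians were 2.23-fold for 112 with coding bases and 2.20-fold for 149 without, so those medians lay close to each other.

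**Figure D4:**
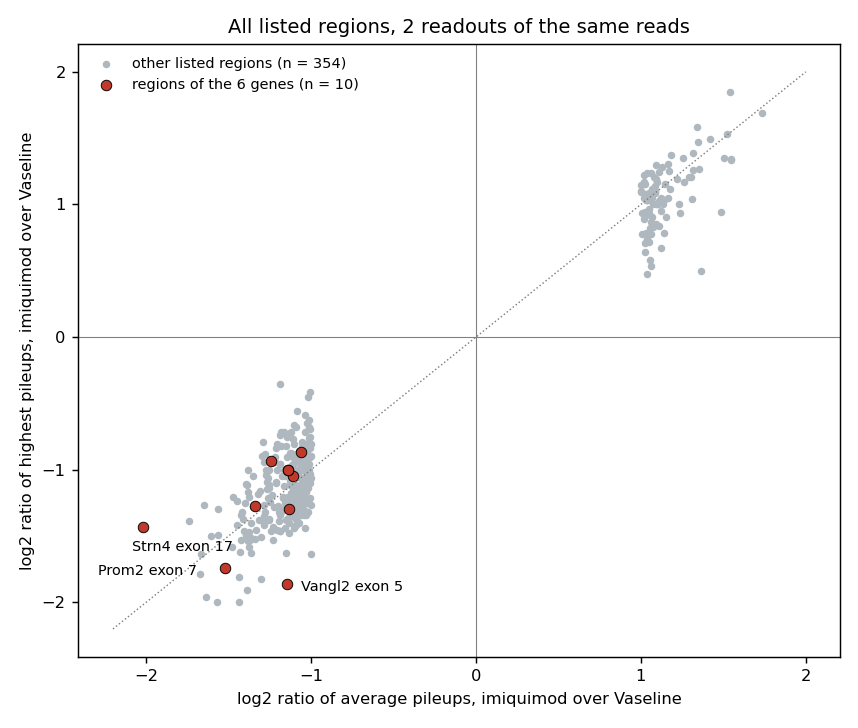
Log2 ratio of highest pileups against log2 ratio of average pileups, imiquimod over Vaseline, for the 10 regions of the 6 genes (red) and the other 354 listed regions (grey), with the dotted line marking equal values. Strn4 lies farthest left at -2.02, and Vangl2 and Prom2 lie low on the vertical axis at -1.86 and -1.74.

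The 10 regions shared few other features. None of the 10 held a CpG island, against 27 of the other 261 lower regions (10.3%). A promoter had been assigned to 3 of 10 (30.0%), namely the regions of Strn4 and Prom2 and the intron 1 region of Sipa1l3. The share in the other lower regions was 24.9%. The deposited promoter count does not name the gene. The Strn4 region is centred 23803 bp from the Strn4 start, while Prkd2 starts 3210 bp downstream of it. The median length of the 10 regions was 669 bp, against 688 bp in the other lower regions. The intervals of Strn4, Camsap3 and Prom2 lay wholly beyond 1.5-fold, 3 of 10 (30%) against 24.1% of the other lower regions. Equality lay outside the interval in all 364 listed regions, so the table's own limits on tags and fold leave nothing to read from it. No difference between the 10 and the rest was tested, since the members had been chosen by their values.

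The 7 lists of related genes held 151 genes, of which 145 were not among the 6. Of these 145 genes 4 had a lower region and 0 a higher one. Among all 399 assigned genes, 332 had a lower and 67 a higher region. Every assigned gene has a listed region and a list gene need not, so the shares of 145 and 399 cannot be compared. The table holds selected regions only, so an unlisted gene has no value here and cannot be called unchanged. The 4 genes were Sipa1l1, Sipa1l2, Vgll4 and Ptk7.

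All 3 SIPA1-like paralogues on the list, Sipa1l1, Sipa1l2 and Sipa1l3, therefore had a lower region, out of 11 genes on the Rap1 list. The lists were chosen with earlier results of these data known, so nothing is read from this count. The Sipa1l1 region had an average of 10.77 in imiquimod and 23.00 in Vaseline epidermis, 2.13-fold lower (1.38 to 3.31), and 443 of its 677 bp were coding. The Sipa1l2 region had 9.83 in imiquimod and 20.06 in Vaseline epidermis, 2.04-fold lower (1.27 to 3.50), with 144 bp coding and 186 bp annotated as untranslated. The Rap1 regulators Sipa1, Rap1gap and Rap1gap2 had no listed region.

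In the Hippo list of 39 genes, Vgll4 joined Ptpn14. Its product competes with YAP for the TEAD transcription factors. The Vgll4 region is intronic, with an average of 9.43 in imiquimod and 20.04 in Vaseline epidermis, 2.12-fold lower (1.43 to 3.22). The kinases, scaffolds and TEAD factors on the list had no listed region.

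In the planar polarity list of 30 genes, Ptk7 joined Vangl2. It encodes a receptor-like pseudokinase that acts with Vangl2 in planar polarity of the mouse. The Ptk7 region, in an intron, had an average of 9.65 in imiquimod and 21.59 in Vaseline epidermis, 2.24-fold lower (1.37 to 3.81). Strn4 stood alone among 22 STRIPAK genes and Camsap3 alone among 14 genes of microtubule minus ends. The region assigned to Camsap3 lies beyond that gene, inside Xab2. Prom1 had no listed region, and neither had any of 34 genes of apical and basal polarity.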

How the data were processed

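hMeDIP-seq of epidermal DNA was compared between 1 imiquimod and 1 Vaseline library. Per the submitters' processing notes, CASAVA and MACS2 were used with mm10. Aligner, duplicate handling and library scaling are not stated there or in the labels. Enriched intervals of 4 libraries were merged into numbered regions and annotated, per the file headers. The 6 columns of the other 2 libraries were not used, nor was a deposited sheet that gives averages by gene. The columns were matched to the samples by the words control and treated.

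The deposited signal is the average and the highest tag pileup of a region. The authors' deposited tag score equals the larger average times length over 224, so tags of each library were computed the same way. The deposited log2 ratio by the authors matched that of the averages in all 364 regions (tolerance 1e-06). The smallest larger tag number was 49.5. Depth is unknown, so precision was given only as exact Clopper-Pearson 95% intervals of the tag ratio, which cover counting error.

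With 1 library per condition no test was made. Coordinates are as deposited, and starts may be counted from 0. Exons came from the GENCODE M21 basic annotation (GRCm38), with the longest principal transcript of each gene for exon and codon numbers and for sequence. No genome sequence was used, so CpG sites were counted in coding bases only, not over whole regions as planned. Named genes were the 6 members, other genes assigned to their regions, genes of 7 pathway lists with a listed region, and the nearest other listed region. The nearest region to Camsap3 is not reported here. The members and lists were chosen with earlier results of these data known. Python 3.11.15, numpy 2.4.6, pandas 2.3.3, SciPy 1.17.1 and matplotlib 3.10.9 were used.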

Additional observations from a re-analysis of the deposited data

How the results depend on the processing

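Leaving out a replicate was not possible with 1 library per condition. No paired analysis was possible because the groups hold 1 sample each. All 10 regions kept their direction under the highest pileup, which comes from the same reads. Scaling to equal sums and pseudocounts cannot turn the sign at these ratios and are no sign of stability. The count of 10 lower regions was 1 at a minimum of 100 tags (Camsap3) and 1 at 3-fold (Strn4). Of all listed regions, 2.75% met the first limit and 1.92% the second. Multiplying imiquimod averages by 1.40 equalises the sums of average pileups in the table, and the count at 2-fold was then 2 (Strn4 and Prom2). Multiplying by 1.502 equalises estimated tags and was an alternative added after seeing the data. The count at 2-fold was then 1 (Strn4). Shares over all listed regions were not computed for the rescaled counts, so nothing is read from them. Summed log2 ratios of Ptpn14 and Sipa1l3, -1.13 and -1.20, were -0.64 and -0.71 with equal sums of average pileups, -0.54 and -0.61 with equal tags, and -0.61 and -0.67 with a pseudocount of 10, which shrinks ratios by construction. Of 40 values for single regions under 4 alternatives, 37 stayed inside the counting interval. The exceptions were Vangl2 by highest pileup (-1.86), Camsap3 with equal sums of average pileups (-0.65) and Strn4 with a pseudocount of 10 (-0.97). Intervals of single regions are wide, so staying inside them is no sign of stability. They hold for the averages and not for highest pileups, so the Vangl2 exception is no measured disagreement. Of 3 regions overlapping an exon of their gene, 1 did so over at least 50% of its length. Of 10 list genes with a lower region, 1 remained at 3-fold, and 9 remained (without Camsap3) when only regions inside the gene counted. CpG counts for whole regions and their central 300 bp were not run, and the coding bases of the central 300 bp gave a median of 5.59 per 100 bases in place of 4.53.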

Other observations

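The nearest other listed region on the same chromosome is given here for 5 of the 6 genes. For these 5 it lay 1476748 to 8180924 bp away from their own regions. The nearest to Ptpn14, which the authors placed downstream of Nenf, was 2.15-fold lower in imiquimod, the nearest to Strn4, in Bcam, 2.57-fold lower, and the nearest to Vangl2, in Adck3, 2.60-fold lower. The nearest to Sipa1l3 and to Prom2 had no assigned gene and went the other way. The first had an average of 23.0 in imiquimod and 8.60 in Vaseline epidermis, 2.67-fold higher, and the other had 19.9 in imiquimod and 9.75 in Vaseline epidermis, 2.04-fold higher.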
